A study of Mus musculus with 9 samples.

Results

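The genes described here are 10 integrin genes of leukocytes, chosen by name: Itgam, Itgb2, Itgal, Itgax, Itga4, Itgb1, Itgb7, Itgae, Itga5 and Itga6. All 10 were found among the 23420 gene symbols of the deposited table, and 9 passed the filter on low values, an RPKM (reads per kilobase of gene, scaled to library size) of at least 1 in at least 2 of the 9 libraries. Itgae did not pass and is given as values without a test. The libraries were Smart-seq2 RNA-seq of Mac1+ cells from mouse bone marrow, each from 100 cells collected by FACS, and all mice were C57BL/6. The DKOITD group (n = 4) carried Ezh2 fl/fl, Runx1 fl/fl, Rag1Cre+ and Flt3 ITD/+. The ITD group (n = 2) had the same floxed Ezh2 and Runx1 alleles and Flt3 ITD/+ without Cre. The WT group (n = 3) had the floxed alleles alone, so all 3 groups carried floxed Ezh2 and Runx1. Cre under Rag1, a gene of lymphoid progenitors, need not have been made by every ancestor of a Mac1+ cell, and no source used here states what share of Mac1+ cells carried the deletions. Ages and sexes of the mice are not stated either. Whether the libraries stem from separate animals is not in the labels. The p-values therefore cover the spread between libraries alone, which may be technical.

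Integrins are adhesion receptors made of 1 α and 1 β chain, and the α chain largely sets the ligand. The β2 chain (Itgb2, CD18) pairs with αM (Itgam, CD11b) to form Mac-1, a receptor for complement fragments and ICAM-1 on neutrophils and monocytes. With αL (Itgal, CD11a) it forms LFA-1, the ICAM receptor of most leukocytes, and with αX (Itgax, CD11c) it forms the p150,95 receptor, which is abundant on dendritic cells. The β1 chain (Itgb1) pairs with α4 (Itga4) to bind VCAM-1, with α5 (Itga5) to bind fibronectin and with α6 (Itga6) to bind laminin. The β7 chain (Itgb7) pairs with α4 to bind MAdCAM-1 in the gut and with αE (Itgae, CD103) to bind E-cadherin. Cells were sorted on Mac1, whose αM chain is the product of Itgam and whose β2 chain is that of Itgb2. Neither transcript is therefore independent of the gate.

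For Itgam, Itgax and Itgb7 the 250 bases before the RefSeq start site are shown, because their transcripts differed most between DKOITD and WT and because Itgam and Itgax are neighbours. Itgam lies on chromosome 7 at 128062640 to 128118491 and Itgax follows 11055 bp later at 128129547 to 128150657, both on the plus strand (GENCODE vM21, mm10). Itgb7 lies on chromosome 15 at 102215995 to 102231944 on the minus strand. The sequences are from RefSeq (GRCm38.p6) and run 5′ to 3′ along each gene's strand, at chr7:128062390-128062639 for Itgam, chr7:128129300-128129549 for Itgax and chr15:102231936-102232185 for Itgb7. Capitals mark GAGGAA or its reverse complement TTCCTC, the core letters of the site of PU.1, a transcription factor of myeloid cells.
Itgam promoter: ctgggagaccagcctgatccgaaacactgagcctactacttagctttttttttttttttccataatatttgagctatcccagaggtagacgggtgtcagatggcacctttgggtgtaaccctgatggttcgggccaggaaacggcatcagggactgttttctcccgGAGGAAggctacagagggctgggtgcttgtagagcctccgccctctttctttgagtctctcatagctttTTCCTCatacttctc
Itgax promoter: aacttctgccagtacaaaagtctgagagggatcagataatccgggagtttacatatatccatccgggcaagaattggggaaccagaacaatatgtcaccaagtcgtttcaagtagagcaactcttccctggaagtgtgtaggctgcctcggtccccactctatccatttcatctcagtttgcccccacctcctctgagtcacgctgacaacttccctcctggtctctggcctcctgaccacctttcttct
Itgb7 promoter: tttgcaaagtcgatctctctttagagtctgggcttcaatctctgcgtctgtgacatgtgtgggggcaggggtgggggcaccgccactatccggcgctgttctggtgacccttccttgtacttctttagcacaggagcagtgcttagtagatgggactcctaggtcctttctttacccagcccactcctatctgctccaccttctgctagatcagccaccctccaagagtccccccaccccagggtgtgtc
RefSeq windows of 300 bases were matched for 6 of the 10 genes (Itgam, Itgax, Itga4, Itgb1, Itgb7 and Itga5), and 3 motifs were searched on both strands, with no 2 matches in these windows overlapping. GAGGAA was present in 4 of the 6 windows (Itgam, Itgb1, Itgb7 and Itga5), against 28.3% of 32851 mouse windows of that length. In Itgam it began 84 and 15 bases before the start site, and once more 33 bases after it. TGTGGT, the core of the RUNX1 site, was present in 2 of the 6 (Itgax and Itga4), against 16.8% of all windows, and the variant TGCGGT in 0 of the 6, against 6.45%. The match in Itgax and that in Itgb7 lie past the printed stretch, 14 and 3 bases after the start. A match describes letters in these windows and says nothing of binding in these cells.

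Recovered reads ran between 2824091 and 13294890 per DKOITD library, 5106319 and 13737850 per ITD library, and 14765527 and 23114869 per WT library. Against recovered reads, the deposited values were scaled unevenly between libraries. The implied denominator over recovered reads, relative to its geometric mean over the 9 libraries, was 1.13 to 1.44 for DKOITD libraries. It was 0.853 and 0.918 for ITD libraries, and 0.703 to 0.809 for WT libraries. Recovered reads are those assigned to genes, and which read total the authors used is not stated. DKOITD 2 was the shallowest library, and WT 2 had the lowest median correlation across genes with the other libraries, at 0.865. Ezh2, the PRC2 methyltransferase, measured 18.1, 1.54, 8.04 and 10.2 RPKM across DKOITD libraries 1 to 4, against 12.9 and 19.0 across ITD libraries 1 and 2 and 9.69, 2.05 and 12.4 across WT libraries 1 to 3. Runx1 measured 16.4, 14.9, 17.6 and 10.4 RPKM across DKOITD libraries, against 4.42 and 4.42 across ITD libraries and 10.7, 13.02 and 3.53 across WT libraries. Gene-level RPKM cannot separate the floxed exons from the rest. The numbers that begin the library descriptions are 228, 267 and 274 in DKOITD 1 to 3 and 385 to 393 in the other 6 libraries. The sources do not say what they stand for, and apart from DKOITD 4 this number series and the genotype cannot be told apart.

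DKOITD Mac1+ cells had less Itgam and Itgb2 and more Itgax and Itgb7 transcript than WT cells, so 4 of the 9 tested integrin genes changed, 2 in each direction. Over all 10868 genes tested, 12.7% passed the same threshold, an adjusted p under 0.05 with limma and Benjamini-Hochberg adjustment, with 7.43% higher and 5.27% lower. In 6 of the 9 the DKOITD and WT libraries did not overlap, 3 higher and 3 lower, against 25.0% of all genes (14.1% higher, 10.9% lower), and 6 had an unadjusted p under 0.05, against 30.2%. Per recovered read the median of all genes moved to 0.74 on the log2 scale, against 0.17 as deposited, and there 5 integrin genes passed, 4 higher and 1 lower, against 25.5% of all genes (23.3% higher, 2.27% lower). Relative to that shift Itgam stood at -2.10, Itgb2 at -1.01, Itgax at 2.77 and Itgb7 at 1.82. The median log2 difference of the 9 genes as deposited was 0.58. In bulk samples, fewer cells of a type and less RNA per cell cannot be told apart.

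**Figure D1:**
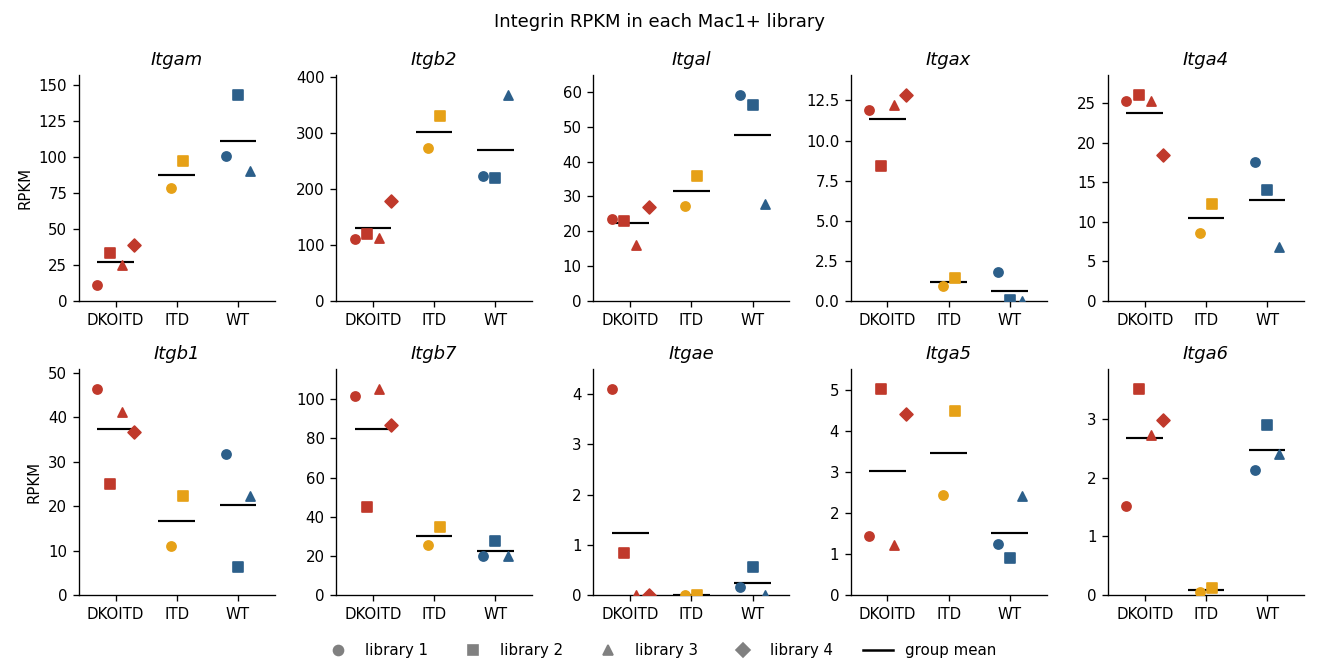
RPKM of each integrin gene (linear axes from 0, a panel per gene) in every DKOITD, ITD and WT library, with 1 point per library and a bar at each group mean. Itgam and Itgb2 sit lower in all DKOITD libraries than in any WT library, and Itgax and Itgb7 sit higher.

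The sort marker Itgam measured 10.98, 33.3, 24.8 and 39.0 RPKM across DKOITD libraries 1 to 4, against 78.1 and 97.3 across ITD libraries 1 and 2 and 100.5, 142.8 and 90.3 across WT libraries 1 to 3. Each DKOITD library was below every ITD and WT library, and DKOITD 1 was the lowest. Itgam had a mean of 27.0 ± 12.2 RPKM in DKOITD (SD, n = 4), against 111 ± 27.9 RPKM in WT (SD, n = 3), and fell by 2.11 ± 0.40 on the log2(RPKM + 1) scale (SE; limma adjusted p = 0.00813). The reads behind these values were 570 to 2739 in DKOITD and 4896 to 8809 in WT. Of the exon bases of Itgam, 68.67% are shared with the same-strand model Gm49368 in GENCODE vM21, so reads of the 2 models cannot be told apart there.

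Its partner Itgb2 (chromosome 10, 77530252 to 77565708), the β chain common to the β2 family, measured 110.5, 119.7, 112.1 and 177.7 RPKM across DKOITD libraries, against 272.7 and 330.02 across ITD libraries and 223.5, 219.9 and 366.6 across WT libraries. Itgb2 was the most abundant integrin transcript in all 3 groups, and its DKOITD and WT ranges did not overlap. It had a mean of 130.0 ± 32.04 RPKM in DKOITD (SD, n = 4), against 270.0 ± 83.7 RPKM in WT (SD, n = 3), and fell by 1.04 ± 0.29 on the log2 scale (SE; limma adjusted p = 0.0355). Per recovered read the log2 difference was -0.27 (limma adjusted p = 0.480), or -1.01 relative to the median of all genes on that scale. Without DKOITD 1, 2 or 3, ITD 1 or 2, or WT 3 the adjusted p was between 0.0535 and 0.101, with log2 differences of -1.04 to -0.79.

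Itgal, the α chain of LFA-1 (chromosome 7, 127296260 to 127335138), measured 23.5, 22.9, 16.02 and 27.1 RPKM across DKOITD libraries, against 27.3 and 35.8 across ITD libraries and 59.03, 56.2 and 27.8 across WT libraries. The highest DKOITD library lay just under WT 3, and WT 1 and WT 2 were well above both. The log2 difference of DKOITD and WT was -1.01 ± 0.35 (SE; limma adjusted p = 0.0811), which did not pass. Without WT 3 it was -1.35 with an adjusted p of 0.0214.

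Itgax, the α chain best known from dendritic cells, measured 11.9, 8.43, 12.2 and 12.8 RPKM across DKOITD libraries, against 0.900 and 1.44 across ITD libraries and 1.79, 0.0659 and 0 across WT libraries. The 4 DKOITD libraries lay close together and above all others, and 0 reads in WT 3 allow a level of up to 0.0643 RPKM (3 reads). Itgax had a mean of 11.3 ± 1.98 RPKM in DKOITD (SD, n = 4), against 0.619 ± 1.02 RPKM in WT (SD, n = 3), and rose by 3.08 ± 0.50 on the log2 scale (SE; limma adjusted p = 0.00423). With a pseudocount of 0.1 in place of 1 the log2 difference was 5.16, because 2 WT libraries lie near 0. Itgax and Itgam are neighbours on chromosome 7 and moved in opposite directions, while Itgad, the next gene 3718 bp after Itgax, stayed under the filter.

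**Figure D2:**
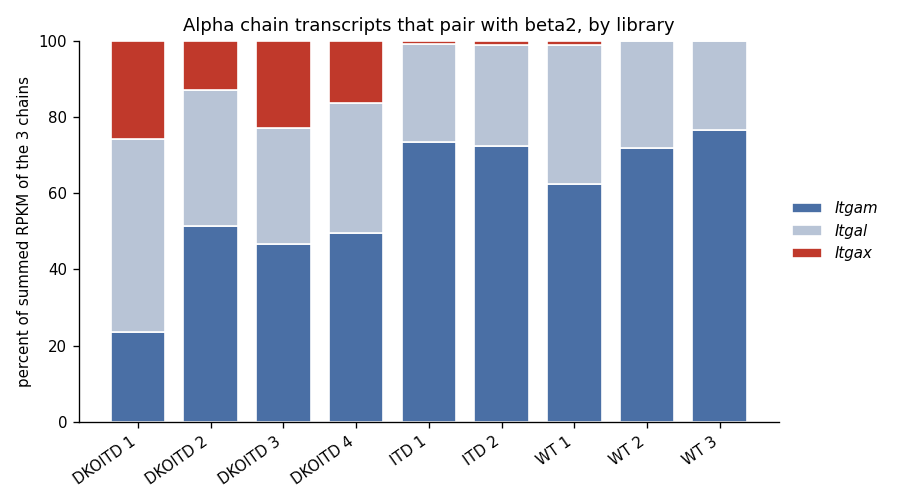
Share of each β2-family α chain (Itgam, Itgal and Itgax) in their summed RPKM, in percent, for each DKOITD, ITD and WT library. The Itgam share is 51.5% or less in every DKOITD library and 62.3% or more in every WT library, and the Itgax share is at least 13.03% in DKOITD and at most 1.11% in WT.

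The mix of β2-family α chains was read within each library, where the scale of the library cancels. Itgam made up 23.7%, 51.5%, 46.7% and 49.5% of summed Itgam, Itgal and Itgax RPKM in DKOITD, 73.5% and 72.3% in ITD, and 62.3%, 71.7% and 76.4% in WT. Its share had a mean of 42.9% ± 12.9 in DKOITD (SD, n = 4), against 70.2% ± 7.20 in WT (SD, n = 3), a difference of -27.3 ± 8.40 percentage points (SE; two-sided exact permutation p = 0.0286, the lowest possible with 4 and 3 libraries). Itgax held 25.7%, 13.03%, 23.0% and 16.2% in DKOITD, 0.846% and 1.07% in ITD, and 1.11%, 0.0331% and 0% in WT. The Itgal share overlapped between the groups, at 37.7% ± 8.92 in DKOITD (SD, n = 4) and 29.5% ± 6.60 in WT (SD, n = 3). Shares sum to the whole, so a lower share of 1 chain raises the others.

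Set against their β chain, the α chains did not pass a test between DKOITD and WT after adjustment over the 8 pairs compared, which the smallest exact p of 0.0286 could not reach alone. The log2 ratio of Itgam to Itgb2 had a mean of -2.33 ± 0.61 in DKOITD (SD, n = 4), against -1.26 ± 0.70 in WT (SD, n = 3; exact permutation p = 0.0857, adjusted 0.343). That of Itgax to Itgb2 had a mean of -3.40 ± 0.33 in DKOITD (SD, n = 4), against -7.52 ± 1.11 in WT (SD, n = 3; exact permutation p = 0.0286, adjusted 0.229), with no overlap. In WT 3, with 0 RPKM of Itgax, the ratio of -8.52 is set by Itgb2 and the added 1. The same holds for Itgae to Itgb7 in DKOITD 3 and 4, ITD 1 and 2, and WT 3, where Itgae was 0. The ratio of Itgal to Itgb2 was -2.48 ± 0.26 in DKOITD (SD, n = 4) and -2.51 ± 1.01 in WT (SD, n = 3). The remaining 5 pairs also overlapped, with exact permutation p between 0.143 and 0.771 before adjustment. The WT ratios of Itgal to Itgb2 spread between -3.67 and -1.90, so a shift inside that range could not be seen.

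**Figure D3:**
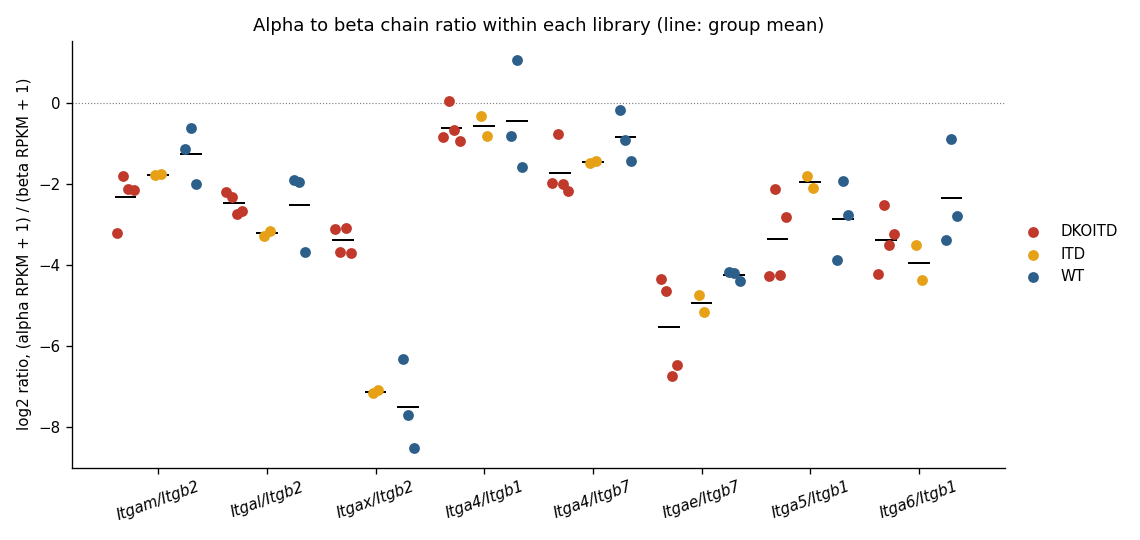
Log2 ratio of each α chain to a β chain it pairs with, (α RPKM + 1)/(β RPKM + 1), for the 8 pairs in each DKOITD, ITD and WT library, with a line at each group mean. Itgax over Itgb2 separates DKOITD (-3.69 to -3.10) from WT (-8.52 to -6.33), and the other pairs overlap. At -8.52, in WT 3, Itgax is at 0 RPKM, so Itgb2 and the added 1 set the ratio.

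Among the 10 genes, Itgb7, the β chain of the gut-homing integrins, had the second highest group mean in DKOITD and the fourth in WT and in ITD. It measured 101.9, 45.01, 105.1 and 86.9 RPKM across DKOITD libraries, against 25.7 and 34.9 across ITD libraries and 19.9, 27.5 and 19.9 across WT libraries. All 4 DKOITD libraries exceeded every other library, with DKOITD 2 the lowest of them. Itgb7 had a mean of 84.7 ± 27.6 RPKM in DKOITD (SD, n = 4), against 22.4 ± 4.42 RPKM in WT (SD, n = 3), and rose by 1.82 ± 0.35 on the log2 scale (SE; limma adjusted p = 0.00849).

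Of its α partners, Itga4 did not pass and Itgae was not tested. Itga4 (chromosome 2, 79255426 to 79333123), the α chain that Itgb7 shares with Itgb1, measured 25.3, 26.01, 25.3 and 18.5 RPKM across DKOITD libraries, against 8.60 and 12.3 across ITD libraries and 17.6, 14.1 and 6.77 across WT libraries. DKOITD 4 lay just above WT 1, and the other DKOITD libraries lay together above it. The log2 difference of DKOITD and WT was 0.92 ± 0.39 (SE; limma adjusted p = 0.134), and per recovered read it was 1.64 with an adjusted p of 0.0126. Of the exon bases of Itga4, 8.041% are shared with Cerkl on the other strand, and the libraries do not mark strand. The log2 ratio of Itga4 to Itgb7 had a mean of -1.73 ± 0.65 in DKOITD (SD, n = 4), against -0.84 ± 0.63 in WT (SD, n = 3; exact permutation p = 0.143).

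Itgae, the other partner of Itgb7, measured 4.10, 0.838, 0 and 0 RPKM across DKOITD libraries, against 0 and 0 across ITD libraries and 0.164, 0.561 and 0 across WT libraries. DKOITD 1 alone exceeded 1 RPKM, with 226 reads, while DKOITD 3 and DKOITD 4 had 0 reads, which allow up to 0.0606 and 0.0438 RPKM (3 reads). Itgae (chromosome 11, 73090583 to 73147446) had the lowest group mean of the 10 genes in all 3 groups.

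Itgb1 (chromosome 8, 128685654 to 128733200), the β chain of the fibronectin and laminin receptors, measured 46.3, 25.1, 41.1 and 36.8 RPKM across DKOITD libraries, against 11.03 and 22.3 across ITD libraries and 31.8, 6.24 and 22.4 across WT libraries. WT 1 exceeded DKOITD 2, so the groups overlapped, and WT 2 was the lowest of all. The log2 difference was 1.08 ± 0.50 (SE; 95% interval -0.01 to 2.17; limma adjusted p = 0.168), and without WT 2 it was 0.43 with an adjusted p of 0.515. Per recovered read it was 1.80 with an adjusted p of 0.0257. The RPKM of Itgb7 over that of Itgb1 was 2.20, 1.79, 2.56 and 2.36 for DKOITD libraries, 2.33 and 1.56 for ITD libraries, and 0.624, 4.41 and 0.887 for WT libraries. The ratio of these β chains was above 1 in every DKOITD and ITD library and on both sides of 1 in WT.

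Transcripts of Itga5 and Itga6, the α chains named above for fibronectin and laminin, were scarce. Itga5 (chromosome 15, 103344286 to 103366763) measured 1.44, 5.01, 1.23 and 4.40 RPKM across DKOITD libraries, against 2.44 and 4.47 across ITD libraries and 1.24, 0.911 and 2.41 across WT libraries, with a log2 difference of DKOITD and WT of 0.58 ± 0.53 (SE; 95% interval -0.57 to 1.72; limma adjusted p = 0.478). Itga6 (chromosome 2, 71745616 to 71858416) measured 1.52, 3.51, 2.73 and 2.98 RPKM across DKOITD libraries, against 0.0507 and 0.122 across ITD libraries and 2.13, 2.90 and 2.401 across WT libraries. DKOITD and WT overlapped for Itga6, with a log2 difference of 0.06 ± 0.43 (SE; 95% interval -0.87 to 0.98; limma adjusted p = 0.941), and both ITD libraries, with 1 and 6 reads, lay below all others.

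**Figure D4:**
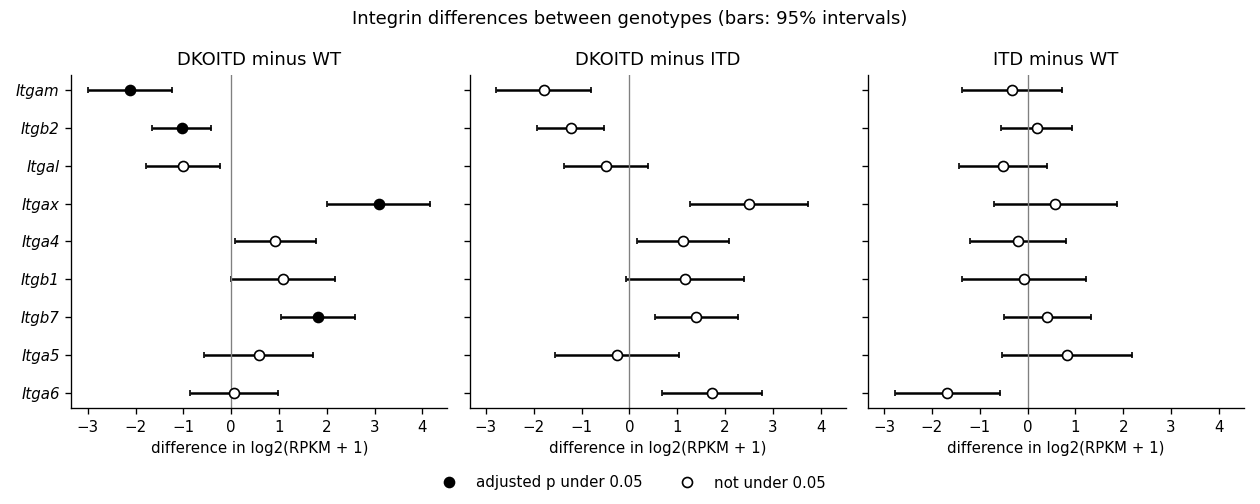
Log2 differences of the 9 tested integrin genes with 95% intervals, for DKOITD and WT, DKOITD and ITD, and ITD and WT. For DKOITD and WT the intervals of Itgam, Itgb2 and Itgal lie below 0 and those of Itgax, Itgb7 and Itga4 above it, and Itgam, Itgb2, Itgax and Itgb7 passed after adjustment.

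With the number series of the labels as a term beside genotype, 0 of the 9 genes passed in DKOITD and WT, and 4 of all 10868 genes did. In that fit the comparison rests on DKOITD 4 alone, and 3 integrin genes had an unadjusted p under 0.05, against 9.80% of all genes. Itgam then stood at -1.46 (adjusted p = 0.469), Itgb2 at -0.56 (0.660), Itgax at 3.26 (0.225) and Itgb7 at 1.92 (0.319) in limma log2 differences. DKOITD 4 itself was below every WT library for Itgam and Itgb2 and above every one for Itgax and Itgb7.

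DKOITD and ITD share Flt3 ITD/+ and differ in Rag1Cre. In this comparison 0 of the 9 integrin genes passed with limma, against 0.212% of all genes tested (0.156% higher, 0.0552% lower), and 6 had an unadjusted p under 0.05, against 15.7%. The comparison has 2 ITD libraries and shares the DKOITD libraries with the one above. Itgax had a log2 difference of 2.50 ± 0.56 (SE; limma adjusted p = 0.0652), Itgam of -1.79 ± 0.46 (SE; 0.0863), Itgb2 of -1.23 ± 0.32 (SE; 0.0935), Itga6 of 1.73 ± 0.48 (SE; 0.107) and Itgb7 of 1.40 ± 0.40 (SE; 0.114). In 8 of the 9 the libraries did not overlap, 5 higher and 3 lower in DKOITD, against 31.3% of all genes (17.3% higher, 14.0% lower). The 9 genes had a median log2 difference of 1.12, against 0.11 for all genes. Itga5 overlapped, with a log2 difference of -0.25 ± 0.60 (SE; 0.887). With limma's library weights 5 passed (Itgam, Itgb2, Itgax, Itgb7 and Itga6), against 4.84% of all genes in that fit.

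In the genotypes of their labels, ITD and WT differ in Flt3 ITD/+ alone. With limma 0 of the 9 integrin genes passed, against 0.0092% of all genes tested, and 1 (Itga6) had an unadjusted p under 0.05, against 7.93%. Itga6 had a log2 difference of -1.67 ± 0.51 (SE; limma adjusted p = 0.411) and Itgam of -0.32 ± 0.48 (SE; 0.880). Itgb2 stood at 0.19 ± 0.34 (SE; 0.905), Itgax at 0.58 ± 0.59 (SE; 0.810) and Itgb7 at 0.42 ± 0.42 (SE; 0.810). Only Itga6, lower in ITD, and Itga5, higher in ITD, did not overlap, against 19.1% of all genes (10.1% higher, 8.99% lower). The median log2 difference of the 9 genes was -0.08, against 0 for all genes. Both groups also enter the comparisons above.

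By group mean in RPKM, which is per length, the order from high to low in DKOITD was Itgb2, Itgb7, Itgb1, Itgam, Itga4, Itgal, Itgax, Itga5, Itga6 and Itgae. In ITD it was Itgb2, Itgam, Itgal, Itgb7, Itgb1, Itga4, Itga5, Itgax, Itga6 and Itgae. In WT it was Itgb2, Itgam, Itgal, Itgb7, Itgb1, Itga4, Itga6, Itga5, Itgax and Itgae. Neighbours in DKOITD such as Itgb1 (37.3 ± 9.04 RPKM) and Itgam (27.0 ± 12.2 RPKM), Itga4 (23.8 ± 3.51 RPKM) and Itgal (22.4 ± 4.61 RPKM), and Itga5 (3.02 ± 1.96 RPKM) and Itga6 (2.68 ± 0.844 RPKM) differed by less than the larger SD of the pair (n = 4). In WT the same held for Itgb7 (22.4 ± 4.42 RPKM), Itgb1 (20.2 ± 12.9 RPKM) and Itga4 (12.8 ± 5.51 RPKM; SD, n = 3).

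Other genes of integrin function were read from lists given in the order of the pathway. Over all genes tested, 12.7% passed between DKOITD and WT, with 7.43% higher and 5.27% lower. Differences here are as deposited, and those per recovered read are not given for these lists. On that scale the median of all genes was 0.74, and 2.27% of all genes passed lower. Of 17 genes listed as other integrin subunits 6 were tested and 1 changed, Itgb2l, a gene related to Itgb2. Itgb2l measured 10.8, 55.8, 14.6 and 57.3 RPKM across DKOITD libraries, against 148.9 and 225.3 across ITD libraries and 166.8, 246.9 and 273.9 across WT libraries. It fell by 3.01 ± 0.54 on the log2 scale (SE; limma adjusted p = 0.00621). The median of the 6 was -0.45, against 0.17 for all genes. Among 20 tested activators and adaptors, which link the cytoplasmic tails of integrins to actin or switch them on, 6 fell, 0 rose and the median was -0.47. These included Vcl, the adaptor vinculin (14.9 ± 6.18 RPKM in DKOITD, 70.4 ± 33.8 RPKM in WT; log2 -2.13), Rasgrp2, the activator of Rap1 (17.3 ± 3.99 RPKM in DKOITD, 56.0 ± 13.1 RPKM in WT; -1.64), Parvg, the leukocyte parvin (-1.68), and Flna, the actin crosslinker filamin A (-1.12). Among 22 tested genes of integrin signalling 5 fell, 0 rose and the median was -0.62. Actn1, which encodes α-actinin, had a mean of 3.55 ± 4.02 RPKM in DKOITD, against 46.5 ± 26.1 RPKM in WT (log2 -3.55), and the focal adhesion adaptor Pxn had a mean of 4.68 ± 2.14 RPKM in DKOITD, against 31.0 ± 11.3 RPKM in WT (-2.52). Rac2, a GTPase of blood cells (-1.44), and Fgr, a Src-family kinase of myeloid cells (-1.15), fell as well. The SDs here are over 4 DKOITD and 3 WT libraries, and adjusted p-values of the named genes lay between 0.00469 and 0.0290.

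**Figure D5:**
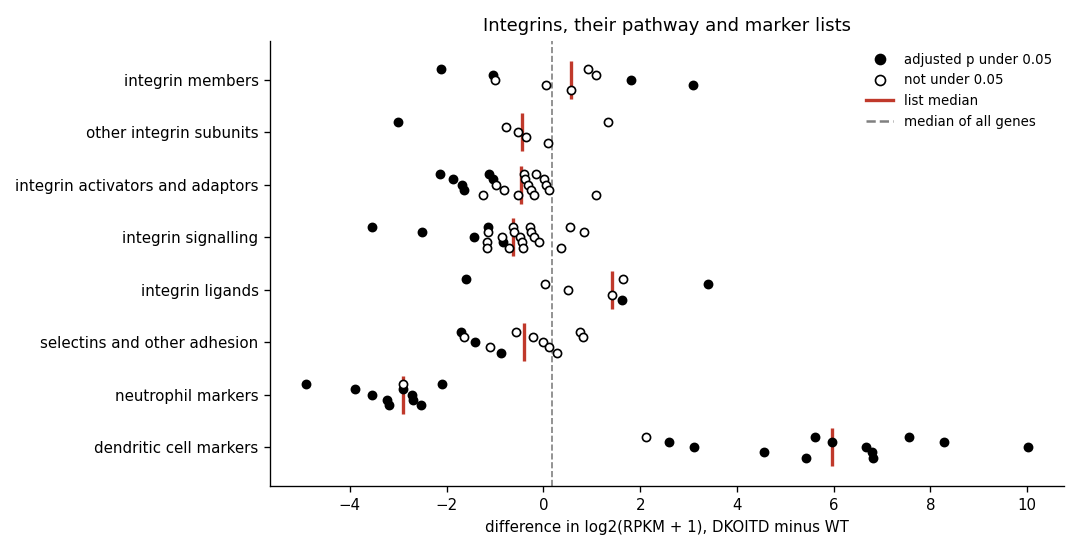
Log2 difference of DKOITD and WT for each tested gene of the 10 integrin genes, the 5 pathway lists and 2 marker lists, 1 point per gene, filled where the adjusted p was under 0.05, with red bars at list medians and a dashed line at the median of all genes. Every gene that passed among activators and adaptors, signalling, and selectins and other adhesion was lower in DKOITD, and among ligands 2 were higher and 1 lower.

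Of 16 integrin ligands, 7 were tested, 2 rose and 1 fell, with a median of 1.41. Of all genes tested, 7.43% passed higher and 5.27% lower. Icam1, the ligand of LFA-1 and Mac-1, had a mean of 19.4 ± 8.07 RPKM in DKOITD (SD, n = 4), against 1.11 ± 1.53 RPKM in WT (SD, n = 3; log2 3.40, limma adjusted p = 0.00539). Spp1, osteopontin, had a mean of 18.8 ± 9.28 RPKM in DKOITD (SD, n = 4), against 4.97 ± 0.598 RPKM in WT (SD, n = 3; log2 1.63, limma adjusted p = 0.0418). Across ITD libraries 1 and 2 Spp1 measured 13.1 and 40.9 RPKM, so its rise was not particular to DKOITD. Its log2 difference was 2.03 for ITD and WT (limma adjusted p = 0.387) and -0.40 for DKOITD and ITD (0.776). C3, whose fragment binds Mac-1, fell, at 45.8 ± 17.1 RPKM in DKOITD (SD, n = 4), against 138.0 ± 40.8 RPKM in WT (SD, n = 3; log2 -1.60, limma adjusted p = 0.0118). Of 12 tested selectins and other adhesion genes 3 fell and 0 rose, with a median of -0.40: Cd44, the hyaluronan receptor (log2 -1.41), Cd9, a tetraspanin (-0.88), and Cd177, a neutrophil surface protein that associates with Mac-1 (-1.70, limma adjusted p = 0.0495). In DKOITD against ITD and in ITD against WT, 0 genes of these 5 lists passed, against 0.212% and 0.0092% of all genes.

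Markers of myeloid cell types also differed between DKOITD and WT, and their part in the integrin results was not tested. Of all genes tested, 7.43% passed higher in DKOITD than in WT and 5.27% lower. Of 11 tested neutrophil markers 10 were lower in DKOITD than in WT and 0 higher, and their summed RPKM was 35406 to 265960 in DKOITD, 682652 to 728849 in ITD and 879453 to 1193593 in WT. Of 13 tested dendritic cell markers 12 were higher and 0 lower, with sums of 9465 to 38231 RPKM in DKOITD, 4221 to 11373 in ITD and 44.3 to 1205 in WT. Of 10 tested monocyte and macrophage markers 5 were higher, with sums of 2035 to 3342 RPKM in DKOITD, 3727 to 3869 in ITD and 2559 to 3185 in WT. Of 4 tested plasmacytoid dendritic cell markers 3 were higher, with sums of 56.4 to 276 RPKM in DKOITD, 43.5 to 63.9 in ITD and 4.70 to 20.9 in WT. No gene of the neutrophil, dendritic or monocyte list was at 0 in all libraries. Of all marker lists, 2 dendritic genes (Clec10a and Ccr7) passed between DKOITD and ITD, both higher in DKOITD, and 1 (Cd209a) between ITD and WT, higher in ITD.

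Markers of other lineages were read in the same way. T cell markers summed to at most 22.8 RPKM in any DKOITD library, 17.6 in any ITD and 13.7 in any WT library, with Cd3e and Cd247 at 0 throughout and 0 of 3 tested markers changed. NK markers summed to 73.2 to 203 RPKM in DKOITD, 64.9 to 196 in ITD and 100.5 to 345 in WT. Gzmb and Prf1 were at 0, and Klrk1 was higher and Nkg7 lower in DKOITD than in WT. In WT 2, Gzma measured 145.8 RPKM and Ncr1 6.95 RPKM, and both were 0 in every other library. B cell markers summed to 55.0 to 83.1 RPKM in DKOITD, 9.38 to 23.3 in ITD and 5.25 to 17.5 in WT, with Pax5 at 0 and Cd79b higher. Erythroid markers summed to 0 to 1.40 RPKM in DKOITD, 0 to 2730 in ITD and 17.8 to 17156 in WT, with Epor at 0. The β-globin gene, Beta-s in the table, was lower in DKOITD than in WT, and measured 17103, 5372 and 17.0 RPKM across WT libraries 1 to 3. Megakaryocyte and platelet markers, with Ppbp at 0, summed to 0 to 0.292 RPKM in DKOITD, 1.51 to 4.24 in ITD and 0.116 to 103.6 in WT. Pf4 measured 101.1 RPKM in WT 1 and 0 in every other library. Mast cell and basophil markers summed to at most 9.20 RPKM in any library and eosinophil markers to at most 7.95 RPKM, with Fcer1a, Prss34 and Epx at 0, and 0 tested genes of these 3 last lists changed.

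The genes whose pattern over the 9 libraries was most like that of Itgam were Ehd1, an endocytic recycling protein (Pearson r of log2(RPKM + 1) = 0.986), Cybb, the catalytic chain of the phagocyte oxidase (0.981), Golim4, a Golgi membrane protein (0.980), Rcsd1 (0.979) and Ifitm6 (0.976). Cybb averaged 306 RPKM in DKOITD, 627 in ITD and 676 in WT, and Ehd1 averaged 5.05 RPKM in DKOITD, 20.9 in ITD and 28.8 in WT. The genes most like Itgax were Olfm1 (0.987), Dpy19l1 (0.986), Matk, a kinase of blood cells (0.986), E330020D12Rik (0.982) and Nfix, a nuclear factor I protein (0.978). Matk averaged 27.0 RPKM in DKOITD, 1.97 in ITD and 1.67 in WT. These correlations describe 9 libraries in 3 genotype groups that share their group differences, and they carry no test.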

How the data were processed

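RNA-seq of 9 libraries was deposited as RPKM per gene symbol by the authors, in 1 table. Per the submitters' processing notes the tools were STAR 2.4.2a, SAMtools 1.1 and HTSeq 0.6.1p1, with mm10 as build and no step assigned to each. Neither annotation nor RPKM scaling is stated in these sources. Whole reads per gene were recovered from the values for depth and for 1 alternative scaling: 13114 genes of 15566 above 0 gave whole reads within 0.0001, and 2452 genes seen in 1 library only were taken as 1 read. Reads of PCR products are not independent molecules, so the floors of 3 reads cover counting error only.

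Groups and replicate numbers came from the titles. Genes at 1 RPKM or more in 2 or more libraries (10868) were fitted as log2(RPKM + 1) with limma 3.58.1 in R 4.3.3 (lmFit, eBayes with trend), all 9 libraries in 1 fit with genotype as the only factor, tested two-sided with Benjamini-Hochberg adjustment over all genes and a threshold of 0.05. Fold changes on this scale understate changes of low genes. The fit was also run on simulated data with independent noise per gene and library. Those data held no differences in library scaling, label numbers or cell mix, so that run cannot speak to them. Ratios and shares used exact permutation tests. Alternatives were another pseudocount, no filter, quantile normalization, scaling per recovered read, a replicate block, a label number term, library weights, 2 groups only and leaving out each library. The 10 integrin genes were named in every library, with at most 4 genes per pathway list by smallest adjusted p among those past the threshold, and the 5 genes most correlated with Itgam and with Itgax, the other integrin gene with the smallest adjusted p. The genes, the 16 lists (5 pathway, 11 cell type) and the tests were chosen with earlier results of these data known. Of 189 listed symbols 187 were found, 2 of them through synonyms, and genes named beside small counts of the cell type lists were chosen after their values were seen. Promoters were matched by symbol in RefSeq, and positions are from GENCODE vM21.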

Additional observations from a re-analysis of the deposited data

Results flagged for a closer look

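Within DKOITD (n = 4), 4 of the 21 values checked had 1 library far from the others by Dixon's ratio of gap to range, for which chance gives about 1 group in 20. Itgb2 stood high in DKOITD 4, at 7.48 on the log2(RPKM + 1) scale (ratio 0.833), and Itga4 stood low in the same library, at 4.29 (ratio 0.914). DKOITD 4 is the DKOITD library of the higher label number series. The log2 ratio of Itga4 to Itgb7 stood high in DKOITD 2, at -0.77 (ratio 0.856). The Itgam share of β2-family α chains stood low in DKOITD 1, at 23.7%, with a ratio of 0.8291 that barely exceeds the critical value.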

How the results depend on the processing

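Itgam, Itgax and Itgb7 passed between DKOITD and WT under every alternative run except the label number term, under which 0 integrin genes passed. Itgb2 also lost its call with no filter, per recovered read, with 2 groups only, and without the libraries named above or without both DKOITD 2 and WT 2, an alternative chosen after seeing the data, with adjusted p between 0.0533 and 0.480 in these settings. Leaving out 1 library gave 3 to 4 genes, and 0 in each of the other comparisons. Between DKOITD and ITD, 3 passed per recovered read (Itgax, Itgb7 and Itga6), 1 with 2 groups only (Itgax), 5 with library weights, and 1 (Itgb7) without both DKOITD 2 and WT 2. All genes called there numbered 274 (248 higher, 26 lower), 46, 526 and 71 in these settings in turn, against 23 as reported, and when 1 library was left out they numbered 0 to 157. The number of all genes called for DKOITD and WT, 1380, was 733 with no filter, 2775 per recovered read (2528 higher and 247 lower, against 807 and 573), 884 with the replicate block, 4 with the label number term, and 537 to 1955 when 1 library was left out. The Itgam share difference ranged from -31.2 to -20.9 percentage points when 1 library was left out, with exact p of 0.0667 or 0.1, the smallest those designs allow.

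Same-numbered libraries correlated at -0.0444 to 0.0707 in their deviations from group means, inside the range of other pairs (-0.127 to 0.166). In groups of 2 to 4 libraries the deviations from a mean constrain one another, so this check cannot decide whether the numbers pair the libraries. With replicate number as a block 4 integrin genes passed for DKOITD and WT, Itgam, Itgb2, Itgax and Itgb7.

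Signs changed for values that had not passed. Leaving out 1 library gave ranges of -0.051 to 0.23 for Itga6 in DKOITD and WT, -0.59 to 0.084 for Itga5 in DKOITD and ITD, and, for ITD and WT, -0.57 to 0.062 for Itga4 and -0.73 to 0.40 for Itgb1. The same gave -0.55 to 0.33 for the log2 ratio difference of Itgal to Itgb2 and -0.73 to 0.60 for Itga4 to Itgb1, both in DKOITD and WT. Itga6 in DKOITD and WT was -0.27 with quantile normalization. For DKOITD and ITD, Itgal was 0.047 and Itga5 0.15 per recovered read, and Itga5 was 0.32 with the label number term. For ITD and WT, Itgb1 was 0.11 per recovered read and 0.063 with the replicate block. Among libraries of the higher label numbers the ratio difference was -0.16 for Itgal to Itgb2 and 0.052 for Itga5 to Itgb1. The causes were not tested.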
